A study of Mus musculus with 14 samples.

Results

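The surface markers followed here are 8 genes, Kit, Cd34, Ptprc, Procr, Cd44, Cd27, Cd93 and Cd9, chosen by name among 19322 genes listed for E10 cells and 19424 listed for E11 cells. All 8 were found in both single-cell tables and in the table of whole intra-aortic haematopoietic clusters (wIAHCs), which lists 19425 genes. Mouse aortas were taken at embryonic day (E) 10, with 28 to 32 somite pairs, and at E11, with over 40 somite pairs. Single cells were sorted and sequenced by CEL-Seq, which counts the 3′ end of each transcript once through a molecular barcode. All 3 endothelial sorts were Cdh5+ and Gfi1b-. Non-haemogenic endothelial (non-HE) cells were in addition Gfi1- and c-kit-, and haemogenic endothelial (HE) cells Gfi1+ and c-kit-. Cells in endothelial-to-haematopoietic transition (EHT) were Gfi1+ and c-kit+. These 3 populations came from ICR embryos that carried 1 tomato allele of Gfi1 and 1 GFP allele of Gfi1b. Intra-aortic haematopoietic cluster (IAHC) cells were c-kit+CD31+ at E10, and at E11 were sorted both as c-kit+CD31+ and as c-kit+ cells. E11 pre-HSCs were c-kit+Cdh5+, with CD45- cells as type I and CD45+ cells as type II, and yolk sac (YS) HSPCs were c-kit+. IAHC cells, pre-HSCs, YS HSPCs and wIAHCs came from C57BL/6 embryos without these reporter alleles. Strain therefore changes between EHT cells and all later populations, and strain and population cannot be told apart there. Pooling of dissected aortic regions is stated in the study's methods for IAHC cells and not for the other sorts. The methods also select IAHC cells on Gpr56 transcripts. At the deposited depth, 19 of 73 E10 IAHC cells, 61 of 201 E11 c-kit+CD31+ cells and 42 of 89 E11 c-kit+ cells did not pass that rule (over 1 Gpr56 transcript and at most 2 of each of several other genes), and all were kept.

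Surface proteins of this kind let blood stem and progenitor cells be sorted alive. Kit is the receptor for stem cell factor, and CD45, the product of Ptprc, is a phosphatase carried by nucleated blood cells. Cd34 encodes a sialomucin that endothelium and haematopoietic progenitors share, and Procr encodes the endothelial protein C receptor, which marks haematopoietic stem cells and also some endothelium. CD44 binds hyaluronan, CD27 is a receptor of the tumour necrosis factor family on progenitors and lymphocytes, CD93 is a lectin-like glycoprotein of endothelium and early progenitors, and CD9 is a tetraspanin of platelets and several other cell types. In the aorta, blood cells leave the endothelial wall, so the gates of the sort cut through a continuous change in c-kit and, later, in CD45.

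The single-cell tables held 546 E10 cells in 5 populations and 575 E11 cells in 8, with 30 to 201 cells per population. Every E10 cell carried 3000 transcripts and every E11 cell 5000, because the depths had been equalised before deposit, so levels are compared within a stage, and comparisons across stages used E11 cells thinned to 3000. Each population is 1 labelled sample, apart from the pre-HSCs, of which both types share 1, and a cell is no replicate of its population, so differences between populations carry no p-value. The columns of E10 non-HE cells are named for early E11, while their label says E10. The column names divide the cells into sets, and each set holds 1 population, so set and population cannot be told apart. E10 IAHC, E11 HE, E11 EHT and E11 YS HSPC cells are 1 set each, so their values have no range over sets. What a set stands for is not given in the sources used here. The mean summed level of 12 endothelial marker genes ran from 29.2 transcripts per cell in E10 non-HE cells to 0.695 in E10 YS HSPCs, and that of 9 haematopoietic genes from 0.581 to 12.1, which follows the labels of these populations.

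The members lie on 4 chromosomes of GRCm38 (mm10). Kit spans chr5:75574916-75656722 on the plus strand, Cd34 chr1:194938819-194961279 on the plus strand and Procr chr2:155751117-155755471 on the plus strand. Cd44 lies at chr2:102811141-102901665, Cd93 at chr2:148436640-148443563 and Ptprc at chr1:138062861-138175708, all 3 on the minus strand. Cd27, at chr6:125232622-125237010, and Cd9, at chr6:125460266-125494791, share the minus strand of 1 chromosome and lie 223.3 kb apart, and their patterns differed. Stretches upstream of 4 members are shown because the results turn on them: Kit and Cd27 were higher in EHT than in HE cells, Cd34 was highest in non-HE cells and Procr was nearly absent from yolk sac cells. They are RefSeq sequences of GRCm38.p6, read 5′ to 3′ on the gene's own strand and ending just before its outermost annotated start, at chr5:75574737-75574915 for Kit, chr6:125237137-125237277 for Cd27, chr1:194938571-194938818 for Cd34 and chr2:155750967-155751116 for Procr. Capitals mark the ETS letters AGGAAG or, on the other strand, CTTCCT.
Kit: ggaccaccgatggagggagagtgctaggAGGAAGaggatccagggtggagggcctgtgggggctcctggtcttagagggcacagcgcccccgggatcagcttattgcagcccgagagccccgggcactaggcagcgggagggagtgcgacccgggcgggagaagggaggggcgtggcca
Cd27: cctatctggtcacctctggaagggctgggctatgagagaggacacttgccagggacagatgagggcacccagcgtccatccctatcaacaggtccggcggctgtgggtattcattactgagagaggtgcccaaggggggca
Cd34: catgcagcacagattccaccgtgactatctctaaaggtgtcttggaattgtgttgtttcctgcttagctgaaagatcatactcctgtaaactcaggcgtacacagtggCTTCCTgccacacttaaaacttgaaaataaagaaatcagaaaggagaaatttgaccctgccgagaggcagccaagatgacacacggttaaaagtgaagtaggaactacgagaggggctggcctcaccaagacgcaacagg
Procr: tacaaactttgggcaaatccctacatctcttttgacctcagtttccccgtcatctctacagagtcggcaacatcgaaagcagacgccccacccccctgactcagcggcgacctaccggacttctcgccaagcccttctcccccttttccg
In all, 3 short motifs were searched on both strands, and they do not overlap one another in these stretches. For RUNX factors, which drive the emergence of blood cells, the letters were TGTGGT. For GATA factors of blood and endothelium, the search used the word AGATAA. The ETS letters, bound by a large family active in endothelium and blood, are those given above. Kit and Cd34 held 1 ETS match each, and 21.4% and 29.3% of 32851 RefSeq promoters hold it in a window of the same length. Neither Cd27 nor Procr held any of the searched letters. These matches describe letters in a window and no binding was measured.

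Kit transcripts followed the c-kit gate between HE and EHT cells at both stages, and less clearly in the yolk sac. Among E10 cells sorted as c-kit-, the mean was 0.093 transcripts per cell for non-HE (95% Poisson interval 0.0253 to 0.238) and 0.265 for HE (0.173 to 0.389). Among those sorted as c-kit+, it was 1.288 for EHT (1.132 to 1.459) and 0.945 for IAHC cells (0.735 to 1.196). The c-kit+ YS HSPCs held 0.362 (0.269 to 0.476), an interval that overlapped that of c-kit- HE cells. The EHT mean was 1.00 to 1.56 over 3 sets and the HE mean 0.246 to 0.297 over 2 sets, so the sets did not overlap. EHT cells thus lay 2.28 above HE cells in Kit on the log2 scale (interval 1.693 to 2.92). The HE and EHT gates adjoin on the c-kit axis, so this difference compares the transcript with the protein that defined the groups. Kit was the only member among 5 past the level minimum of 0.5 transcripts per cell that was at least 2-fold higher in E10 EHT cells, where 4.21% of 1566 genes were. Kit passed that minimum through its EHT level alone, so the minimum itself selected a higher EHT level. The intervals given for Kit cover counting error only, and cell-to-cell variance was up to 1.86 times the mean for Kit.

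At E11, HE cells held 2 Kit transcripts in 46 cells, a mean of 0.0435 (0.00527 to 0.157), and EHT cells held 76 in 46 cells, a mean of 1.652 (1.302 to 2.07). The log2 difference was 5.25 (3.35 to 8.32), and 4.43 with E11 cells thinned to the E10 depth. Kit was higher and Cd34 lower by at least 2-fold at this step, where 6.66% of 2554 genes were higher and 11.7% lower. Here too Kit passed the level minimum through its EHT level alone. Type I pre-HSCs held 1.468, type II pre-HSCs 1.291 and c-kit+ IAHC cells 0.921 transcripts per cell, each with an interval that overlapped its neighbour's. The c-kit+CD31+ IAHC cells held 0.647 (0.540 to 0.768), lower than the pre-HSCs, and YS HSPCs 0.478 (0.300 to 0.724). The c-kit- non-HE cells held 0.233 (0.0938 to 0.481), which overlapped the YS HSPCs. Among the 4 c-kit+CD31+ sets the mean stayed between 0.571 and 0.700, a range that holds type I set 1, with 0.625 in 8 cells. The other pre-HSC sets lay between 0.95 and 1.71.

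Sorting on the protein did not mean finding the transcript in every cell. At E10, 206 of 405 c-kit+ cells held a Kit transcript (50.9%, exact binomial interval 45.9 to 55.8) and 199 held none. Of 141 c-kit- cells, 23 held one (16.3%, 10.6 to 23.5). At E11, with the deeper cells, 277 of 499 c-kit+ cells held one (55.5%, 51.03 to 59.9), 222 did not, and 7 of 76 c-kit- cells did (9.21%, 3.78 to 18.1). The c-kit- cells thus give the share with a transcript outside the c-kit+ gate, and whether they lack the protein is not known. All c-kit- cells came from the ICR embryos, as did, of the c-kit+ cells, the EHT cells alone. Among c-kit+ populations the share was 28.4% in E10 YS HSPCs and 34.8% in E11 YS HSPCs (21.4 to 50.2). It was 60.3% in E10 IAHC cells and 70.9% in E11 type II pre-HSCs. In E11 c-kit+CD31+ IAHC cells it was 46.3% (39.2 to 53.4), an interval that overlapped that of E11 YS HSPCs. Cells with no Kit transcript at this depth cannot be read as cells that lack Kit RNA.

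**Figure D1:**
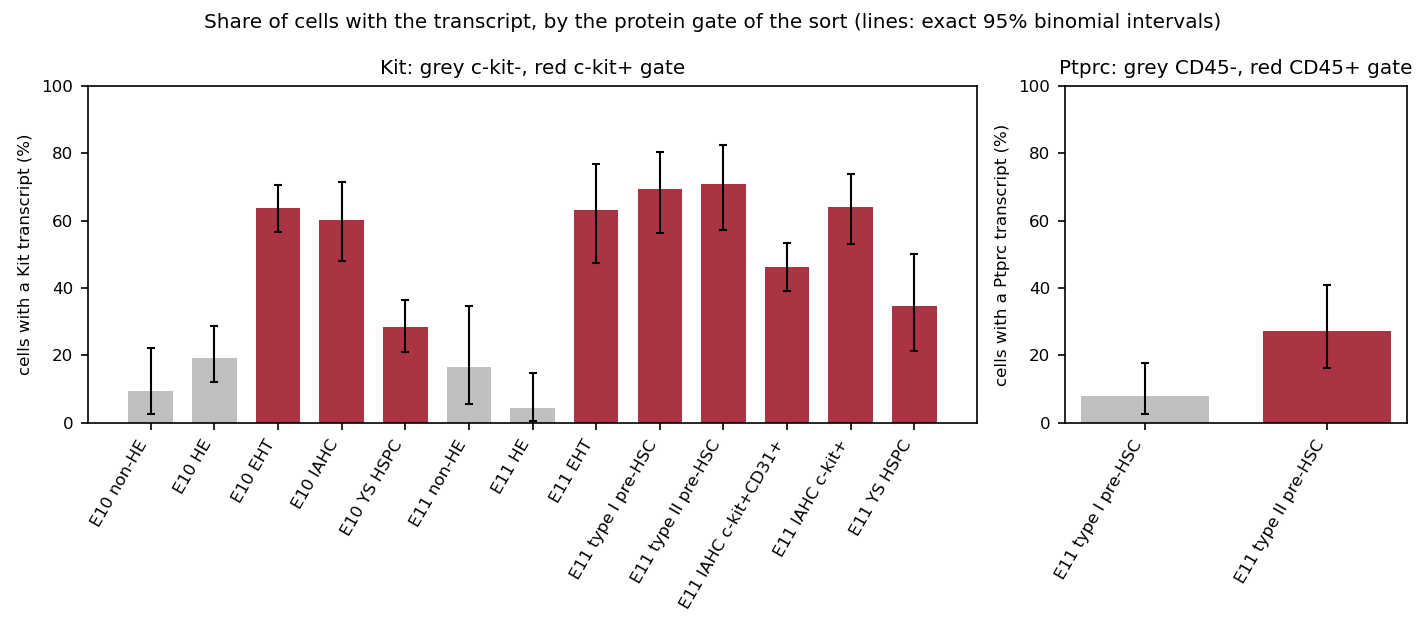
Share of cells (%) with at least 1 transcript of Kit in each population (left) and of Ptprc in both types of pre-HSC (right); bars are coloured by the protein gate and lines are exact 95% binomial intervals. For Kit, c-kit- populations lie between 4.35% and 19.39% and c-kit+ populations between 28.4% and 70.9%, and for Ptprc the CD45- cells lie at 8.06% and the CD45+ cells at 27.3%.

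Ptprc, which encodes CD45, was sparse and followed its gate in few cells. At E11, type I pre-HSCs, sorted as CD45-, held 7 Ptprc transcripts in 62 cells, and type II pre-HSCs, sorted as CD45+, held 17 in 55. A transcript was found in 5 CD45- cells (8.06%, 2.67 to 17.8) and in 15 CD45+ cells (27.3%, 16.1 to 40.96), which left 40 CD45+ cells, or 72.7%, with none. Type II exceeded type I by 1.45 on the log2 scale (0.11 to 2.97). Both types have sets numbered 1 to 3 in their column names, and whether a number marks a shared sort is not given: set 1 had 0 transcripts in both, set 2 had 2 against 9, and set 3 had 5 against 8. Without set 2 the difference was 0.58, and without set 3 it was 2.43, so its size depended on the set left out. With set 2 left out, its direction rests on the 5 against 8 transcripts of set 3, which are few. Erythroid markers also differed between the types, with 3.63 transcripts per cell in type I and 2.55 in type II, and with 4 or more of them in 9 of 62 and 1 of 55 cells. Of the 11 markers, 7 were seen in each type, with Hba-a2 among those at 0 in both, and their part was not tested. Cells with no Ptprc transcript at this depth were thus common on both sides of the CD45 gate.

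The labels name CD45 in no other gate, although the cells sorted as non-HE, HE and EHT were also stained for it, and whether they were selected on it is not given in the sources used here. Ptprc appeared in few cells of those populations. E10 non-HE and HE cells held 1 transcript each, and the HE transcript sat in a cell with 4 or more macrophage markers. E10 EHT cells held 17 in 191 cells (0.089 per cell, 0.0518 to 0.143), which was 3.12 above HE cells on the log2 scale (0.45 to 8.51), IAHC cells 9 in 73 and YS HSPCs 7 in 141. E11 non-HE and HE cells held 0, which, read as at most 3 cells, allows a share of cells with a transcript of up to 10% and 6.52% for counting error only. E11 EHT cells held 7 in 46 cells, at least 2.33-fold more than HE cells when the 0 there is set to 3 transcripts. The E11 c-kit+CD31+ IAHC cells held 38 in 201 and the c-kit+ IAHC cells 23 in 89, or 0.189 and 0.258 per cell, and these intervals overlapped that of type II pre-HSCs.

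Cd27 was found in no cell sorted as c-kit- and in every c-kit+ population. It had 0 transcripts in 43 E10 non-HE cells, 98 E10 HE cells, 30 E11 non-HE cells and 46 E11 HE cells, which, read as at most 3 cells each, allows shares of cells with a transcript of up to 6.98%, 3.06%, 10% and 6.52%. This limits cells in which a transcript was counted, not cells that express Cd27. E10 EHT cells held 27 transcripts, and 11.52% of them had one (7.36 to 16.9), at least 4.62-fold more than HE cells. E11 EHT cells held 6, at least 2.00-fold more. The share was 19.18% in E10 IAHC cells. At the greater E11 depth it was 19.35% in type I and 34.5% in type II pre-HSCs, 21.4% in c-kit+CD31+ and 24.7% in c-kit+ IAHC cells. Thinned to 3000 transcripts, these 4 shares were 12.9%, 21.8%, 12.94% and 13.5%. In the yolk sac the share was 2.13% at E10, and 13.04% at E11 or 10.9% after thinning. The 3′ end of Cd27 is overlapped on the other strand by Vamp1, and the sources used here do not say whether counting used strand. Vamp1 had 13 transcripts in E10 EHT cells, 2 of them cells with Cd27, and at most 5 in any other population, and its part in the Cd27 counts was not tested.

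**Figure D2:**
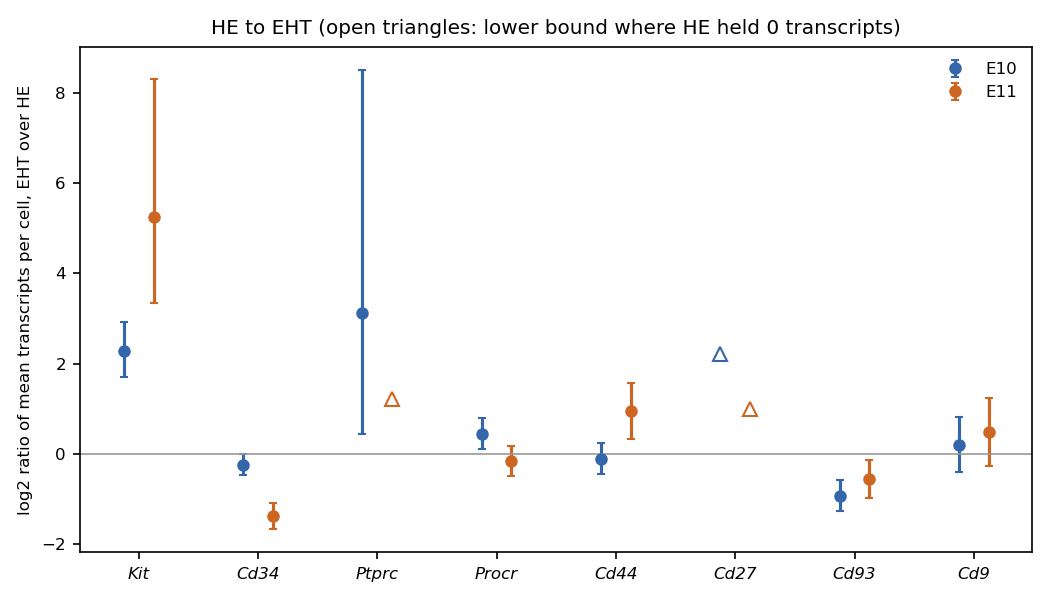
Log2 ratio of mean transcripts per cell in EHT over HE cells for each member at E10 (blue) and E11 (orange); lines are exact 95% intervals and open triangles are lower bounds where HE cells held 0 transcripts. Kit lies highest of the members with a ratio at E11, at 5.25, while Cd34 lies at -0.24 and -1.38 and Cd93 at -0.93 and -0.56.

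Cd34 was highest in non-HE cells at both stages, Cd93 in non-HE cells at E10 and in HE cells at E11, and both were lowest in yolk sac cells. At E10, non-HE cells held a mean of 6.44 Cd34 transcripts (5.71 to 7.25). HE cells held 2.73 (2.42 to 3.08). Cd34 was 2.32 in EHT cells (2.11 to 2.55), 3.89 in IAHC cells (3.45 to 4.37) and 1.18 in YS HSPCs (1.01 to 1.38). The log2 ratio of HE over non-HE cells was thus -1.236 (-1.48 to -0.99), and that of IAHC over EHT cells 0.75 (0.53 to 0.96). The first of these made Cd34 the only member at least 2-fold lower, where 4.78% of 1528 genes were. At E11, non-HE cells held 8.40 and HE cells 7.70, with overlapping intervals, and EHT cells 2.96 (2.48 to 3.50). Of the steps from non-HE to EHT cells, the larger drop therefore lay between non-HE and HE cells at E10 and between HE and EHT cells at E11, where the log2 difference was -1.38 (-1.68 to -1.09). Pre-HSCs of types I and II held 3.94 and 3.95, c-kit+CD31+ IAHC cells 4.07 and c-kit+ IAHC cells 3.596, which were not told apart by their intervals. Cd34 was found in 76.7% to 97.8% of cells of every aortic population at 3000 transcripts. The variance of Cd34 over cells was 3.65 times the mean in E10 non-HE cells and 6.31 times in E11 non-HE cells. Its intervals cover counting error only.

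Cd93 was lower in EHT than in HE cells at both stages. At E10 the mean of Cd93 was 1.93 transcripts per cell for non-HE and 1.46 for HE (1.23 to 1.72). It was 0.764 for EHT (0.645 to 0.899), 0.959 in IAHC cells and 0.177 in YS HSPCs. At E11 it was 2.00 in non-HE cells, with 1.09 and 2.53 in their 2 sets, 2.57 in HE cells (2.12 to 3.07) and 1.74 in EHT cells (1.38 to 2.16). The HE to EHT log2 difference was -0.93 (-1.28 to -0.59) at E10 and -0.56 (-0.99 to -0.14) at E11, so it stayed under 2-fold. The IAHC sorts differed: c-kit+CD31+ cells held 1.687 (1.51 to 1.88), with a range of 1.58 to 1.75 over 4 sets, and c-kit+ cells 1.067 (0.864 to 1.305), with 0.812 to 1.32 over 5 sets. The sets of both sorts did not overlap, and 76.6% of the former cells against 50.6% of the latter held a transcript. No other member separated the sets of these sorts in this way. The share of all genes that do so was not counted, so the separation cannot be called particular to Cd93. No member was 2-fold different between them, where 1.71% of 2049 genes were higher in the CD31+ sort and 1.02% lower. CD31 is itself an endothelial protein, and the summed level of 12 endothelial markers was 9.25 per cell in the c-kit+CD31+ and 6.25 in the c-kit+ cells, while that of 10 mesenchyme markers was 1.199 and 1.94, with 4 or more of them in 5 of 201 and 6 of 89 cells. Of these mesenchyme genes, 9 and 10 were seen, Pdgfra being at 0 in the c-kit+CD31+ cells. The part of either list in the Cd93 difference was not tested. Among the cells that passed the Gpr56 rule the Cd93 means were 1.529 and 0.723.

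Procr was high around the transition and nearly absent from the yolk sac. At E10 the mean was 0.721 transcripts per cell in non-HE, 1 in HE (0.812 to 1.219), 1.366 in EHT (1.206 to 1.54) and 0.466 in IAHC cells (0.323 to 0.651). In YS HSPCs it was 0.0142, with 2 transcripts in 141 cells. At E11 it was 1.03 in non-HE, 3.52 in HE (3.0 to 4.11) and 3.15 in EHT cells (2.66 to 3.71), 1.694 in type I and 1.16 in type II pre-HSCs, 0.945 in c-kit+CD31+ and 1.07 in c-kit+ IAHC cells, and 0.0217 in YS HSPCs, with 1 transcript in 46 cells. E11 HE cells exceeded non-HE cells by 1.77 on the log2 scale (1.208 to 2.37), and Procr was the only member at least 2-fold higher at this step, where 3.45% of 2551 genes were. The log2 ratio of IAHC over EHT cells was -1.55 at E10 (-2.11 to -1.03), where Procr alone of 5 members was at least 2-fold lower and 6.34% of 1546 genes were. Procr passed the level minimum there through its EHT level alone, so the minimum itself selected a lower IAHC level. At E11 the ratio was -1.74 (-2.06 to -1.416), and Procr, Kit and Cd9 of 6 members were at least 2-fold lower, where 11.6% of 2368 genes were, Cd9 only with 3 EHT cells that held macrophage markers. The 12 endothelial markers, all seen in both, averaged 11.18 transcripts per cell in type I and 6.05 in type II pre-HSCs, and their part in the Procr difference was not tested. Type II over type I was -0.54 (-1.01 to -0.079), and type II stood below type I in set 1, with means of 0.6 against 1.875, and in set 3, with 0.7 against 1.5. In set 2, 25 type II cells held 44 transcripts and 34 type I cells 60, which gives nearly the same mean. The type II mean without set 2 was 0.667. In c-kit+ IAHC cells the mean was 0.532 among the 47 cells that passed the Gpr56 rule. One type II cell held 13 Procr transcripts, and the variance over the type II cells was 4.26 times the mean. In E11 HE and EHT cells it was 4.09 and 4.16 times the mean, and the Procr intervals cover counting error only.

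Between aorta and yolk sac, Procr had the widest log2 ratio of the members at both stages. The log2 ratio of YS HSPCs over IAHC cells was -5.04 at E10 (-8.14 to -3.07) and, against c-kit+CD31+ cells, -5.44 at E11 (-10.8 to -2.95). Their shares of cells with Procr, 1.418% and 2.17%, are the lowest of any population. Cd93 was also lower in YS HSPCs, at -2.435 (-3.16 to -1.76) and -1.28 (-1.85 to -0.75), and so was Cd34, at -1.72 and -0.79. Cd27 stood at -3.69 (-6.08 to -1.93) at E10, from 20 and 3 transcripts, and at -0.49 (-1.78 to 0.60) at E11. The 11 erythroid markers averaged 1.603 transcripts per cell in IAHC cells (6 seen) and 1.73 in YS HSPCs (10 seen) at E10, and 0.249 (7 seen) and 5.15 (8 seen) at E11, with Hba-a1 at 0 in all 4. The 12 endothelial markers averaged 5.63 in IAHC cells (11 seen, Prom1 at 0) and 0.695 in YS HSPCs (8 seen) at E10, and 9.25 (12 seen) and 2.63 (10 seen) at E11. The part of either list in these differences was not tested. Kit, Cd34 and Cd93 were at least 2-fold lower at E10, where 6.78% of 1579 genes were, and Procr and Cd93 at E11, where 6.84% of 2164 genes were. Kit and Cd93 at E10 and Procr at E11 passed the level minimum through their IAHC level alone. For them the minimum itself selected a lower yolk sac level. Procr did not pass the level minimum at the E10 step. Of the members, 26 of 141 E10 YS HSPCs held a transcript of none, against at most 3 cells in any other population.

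Cd44 and Cd9 varied less. Cd44 had means of 0.558 transcripts per cell in E10 non-HE cells and 1.153 in E10 HE cells, which differed by 1.05 on the log2 scale (0.40 to 1.75), and then 1.07, 0.849 and 0.674 in EHT, IAHC and YS cells. At E11 it was 0.5 in non-HE, 0.783 in HE and 1.5 in EHT cells (1.167 to 1.898), and between 0.978 and 1.516 in the 5 remaining populations. The difference between endothelial populations thus lay between non-HE and HE cells at E10, and that between HE and EHT cells was 0.94 (0.34 to 1.56) at E11 and -0.11 (-0.45 to 0.23) at E10. The E10 means of Cd9 ran from 0.128 in YS HSPCs to 0.408 in EHT cells. At E11 the range was 0.279 to 0.848, the latter in EHT cells. There, 21 of 39 Cd9 transcripts sat in 3 cells with 4 or more macrophage markers, 1 cell of this population held 19, and the mean without those 3 cells was 0.419, below the 0.609 of HE and the 0.433 of non-HE cells. The summed macrophage markers averaged 5.20 transcripts per cell in E11 EHT cells and at most 1.652 elsewhere. The log2 ratios of Cd9 in type I pre-HSCs and c-kit+CD31+ IAHC cells over EHT cells, -1.32 and -1.61, are taken against that E11 EHT mean. Without those 3 cells Cd9 lay under the level minimum in all 3 of these populations, and so left both counts of members at least 2-fold lower. In all, 10.2% of 2330 genes were at least 2-fold lower in type I pre-HSCs than in EHT cells.

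**Figure D3:**
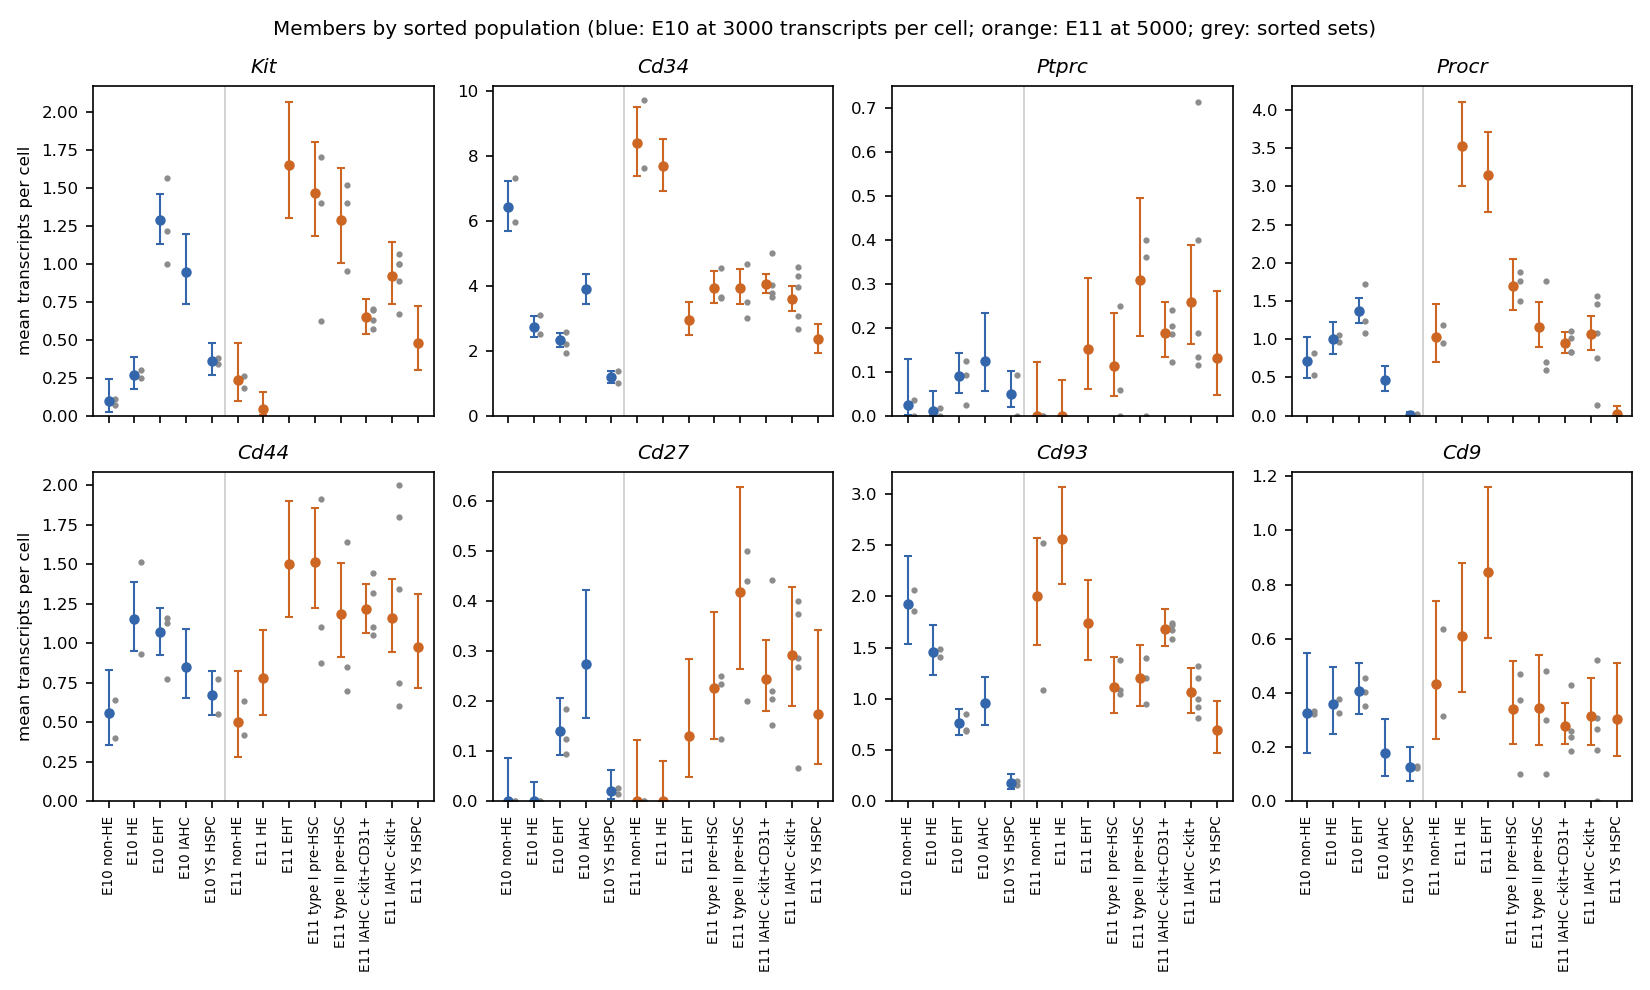
Mean transcripts per cell of each member in each sorted population, E10 in blue at 3000 transcripts per cell and E11 in orange at 5000; lines are exact 95% Poisson intervals and grey points are the means of sorted sets. Kit and Cd27 sit low in non-HE and HE cells, Cd34 and Cd93 are highest in endothelium, and Procr reaches 3.52 in E11 HE cells and 0.0217 in E11 YS HSPCs.

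Between stages, at 3000 transcripts per cell, the members did not move together. E11 HE, E11 EHT and E10 IAHC cells are 1 set each, so the differences given here rest on 1 set at that stage. Procr was higher at E11 in HE cells, at 2.28 against 1.00 (log2 1.19, 0.78 to 1.603), and in EHT cells, at 2.00 against 1.366 (0.55, 0.19 to 0.90). The log2 ratio of E11 over E10 for Cd34 was 0.73 in HE cells (0.46 to 1.00), -0.57 in EHT cells (-0.95 to -0.21) and -0.64 in IAHC cells (-0.85 to -0.42). Kit was lower at E11 in HE cells, at -2.609 (-5.73 to -0.61), and in c-kit+CD31+ IAHC cells, where it was 0.378 against 0.945 in E10 IAHC cells, a log2 difference of -1.32 (-1.81 to -0.83). The share with Kit was 60.3% in E10 IAHC cells and 30.3% in these E11 cells at this depth. The E11 cells sorted as c-kit+ alone lay between them, with a mean of 0.618 and a share of 47.2%. Cd44 was lower in E11 HE cells, at -1.14 (-1.84 to -0.50). At least 2-fold lower were 4.17% of 1342 genes in E11 IAHC cells and 7.38% of 1464 genes in E11 HE cells, while 0.373% and 3.14% were higher.

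Within a population, finding 2 members in a cell can be set beside the product of their separate shares. In E10 EHT cells, 72 of 191 cells held both Kit and Procr, and the product gives 72.8. In E11 c-kit+CD31+ IAHC cells, 70 held Kit and Cd93 and the product gives 71.3. In E11 c-kit+ IAHC cells, however, 36 cells held Kit and Cd93 against 28.8 from the product: 63.2% of cells with Kit held Cd93 and 28.1% of cells without it. In type II pre-HSCs, 12 cells held Procr and Cd27 against 7.95. These pairs were chosen after their values were seen, the cells share sets and depth, and no test was run. The median cell held 2 to 5 of the members over all populations.

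The genes whose levels over the 13 populations ran most like a member were found by Pearson correlation of log2 levels, with E11 cells thinned. These are descriptions over populations of which many share a strain, all at 3000 transcripts per cell. Cd93 ran most like Cdh5 (r = 0.96), VE-cadherin of endothelial junctions, and Vwf (r = 0.96), von Willebrand factor. Cd34 ran most like Eng (r = 0.92), endoglin, and Procr most like Txnip (r = 0.93). Kit ran most like Cebpb (r = 0.90), and Cd44 most like Sfrp2 (r = 0.93), and also like Gfi1, on which HE and EHT cells were sorted (r = 0.84). Cd9 ran most like Smarcc2 (r = 0.96). Ptprc and Cd27, which did not reach 0.5 transcripts per cell anywhere, ran most like Ptpn6 (r = 0.84) and Ifitm1 (r = 0.92). These ranks hold among genes that reached 0.5 transcripts per cell in some population. With a pseudocount of 0.5 in place of 0.1, Rnf44 came first for Procr. With a minimum of 0.2 other genes came first for Kit (Usp1), Cd34 (Kif26a), Ptprc (AI662270) and Cd27 (Tbc1d10c). Among the members, Ptprc and Cd27 ran alike (r = 0.87), as did Kit with Cd27 (r = 0.80) and Cd34 with Cd93 (r = 0.81), whereas Kit and Cd34 ran in opposite directions (r = -0.51).

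Other surface genes gave a frame for the step from HE to EHT. Of 14 endothelial surface genes, 10 at E10 and 11 at E11 passed the level minimum, and 8 and 9 of them were at least 2-fold lower in EHT cells, where 10% and 11.7% of all genes were, with medians of -1.33 and -1.16 against 0.05 and -0.05 over all genes. At both stages some of the endothelial genes counted as lower passed through their HE level alone. For those the minimum itself selected a lower EHT level, so they cannot add to a trend of the list. Among the members, Cd34 at -0.24 and -1.38 and Cd93 at -0.93 and -0.56 stand beside these medians. Prom1, which encodes prominin and did not reach the minimum, had log2 ratios of -2.28 at E10 (14 transcripts against 35) and -3.32 at E11 (2 against 20). Of 18 other haematopoietic surface genes, 1 at E10 and 2 at E11 passed the minimum. These were Cd47 at both stages and Spn at E11, all at least 2-fold higher, where 4.21% and 6.66% of all genes were. Cd47 at E10 and Spn at E11 passed through their EHT level alone. For them the minimum itself selected a higher EHT level, so their count cannot show a trend of the list. Spn, the sialophorin CD43, was higher by 2.944 at E10, where it lay under the minimum, and by 2.89 at E11. Of 13 tetraspanins, the family of Cd9, 6 at E10 and 7 at E11 passed. None was at least 2-fold higher, where 4.21% and 6.66% of all genes were. Tspan18 alone was lower, at E11, where 11.7% of all genes were. For the tetraspanins, counts this small lie near those shares.

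The wIAHCs are c-kit+ clusters picked one at a time from the ventral or dorsal wall of the aorta. Of 109 libraries, 57 held at least 5000 transcripts and were used, with 5099 to 115328 transcripts each. At E10, 21 were ventral and 7 dorsal, and at E11, 17 were ventral and 12 dorsal. The embryo of origin is not known for any of them, so wIAHCs of 1 embryo may be counted as replicates, and p-values cover the spread between libraries. In a cluster, fewer cells of a type and less RNA per cell cannot be told apart. E11 libraries fall into sets A and B of their column names, with 4 ventral and 6 dorsal libraries in set A and 13 and 6 in set B, and all 3 libraries with over 10% haemoglobin transcripts are in set B. Values within each set were added after the data were seen. Of the members, Cd34 alone passed edgeR's filter on low counts, which left 260 genes, so the other 7 are given from a fit without that filter, over 13627 genes.

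Cd34 was lower in E11 than in E10 ventral wIAHCs. In the E10 ventral libraries it ran from 0 to 21.8 transcripts per 10000 with a median of 7.64, and in the E11 ventral libraries from 0 to 8.56 with a median of 3.74. The groups overlapped, and the log2 fold change was -0.96 ± 0.30 (SE, edgeR quasi-likelihood adjusted p = 0.0096), in a contrast that called 31.2% of genes. It was -1.21 (edgeR adjusted p = 0.0039) with E11 set B alone and -0.47 (edgeR adjusted p = 0.563) with set A alone, whose 4 ventral libraries had a median of 7.18. The decrease was thus not called within set A. Markers of other cells moved with this contrast. The 11 erythroid genes summed to 0 to 0.0518% of transcripts in E10 ventral libraries (median 0.0138%, 5 genes seen, with Hba-a1, Hba-a2, Hbb-b2, Klf1 and Alas2 among those at 0) and to 0.0073% to 23.8% in E11 ventral libraries (median 0.303%, all 11 seen). The 10 mesenchyme genes had medians of 0.00337% (0 to 0.14%, 8 seen) and 0.0234% (0 to 0.155%, 9 seen), with Pdgfrb at 0 in both groups and Col1a1 at 0 at E10. Without the libraries of over 10% haemoglobin the fold change of Cd34 was -0.80 (edgeR adjusted p = 0.0174), and the part of the mesenchyme markers was not tested. In dorsal wIAHCs the medians were 5.44 at E10 and 3.43 at E11, and the fold change of -0.48 was not called (edgeR adjusted p = 0.565), where 9.23% of genes were. Without the filter it was -1.07 and not called either (edgeR adjusted p = 0.202). Ventral and dorsal wIAHCs differed in Cd34 by 0.03 at E11 and 0.51 at E10, with edgeR adjusted p-values of 0.993 and 0.743. In the contrasts of side and in the interaction, edgeR called 0 of 260 genes, a share of 0%, with 23 (E11), 20 (E10) and 26 (interaction) at an unadjusted p under 0.05, and DESeq2 called 0 in each. Cd34 also lay lower in E11 than in E10 single IAHC cells, as given above, in other libraries from other sorts.

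**Figure D4:**
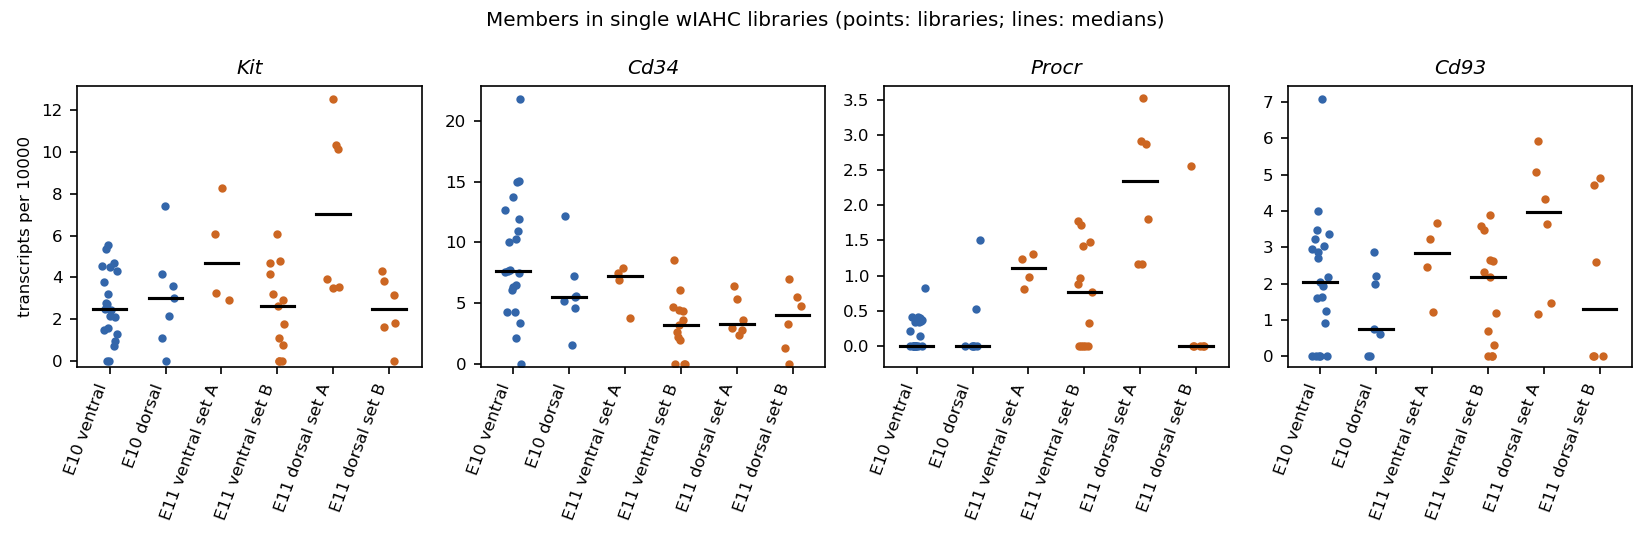
Transcripts per 10000 of Kit, Cd34, Procr and Cd93 in each wIAHC library with at least 5000 transcripts, by stage, side and, at E11, collection set; black lines are medians. Procr medians are 0 in both E10 groups against 1.104 (ventral) and 2.34 (dorsal) in E11 set A and 0.771 and 0 in set B, and Kit medians in set A, at 4.68 and 7.04, lie above those in set B, at 2.63 and 2.48.

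Procr was higher in E11 than in E10 ventral wIAHCs. It was found in 10 of 21 E10 ventral libraries, with a highest value of 0.821 per 10000, and in 12 of 17 E11 ventral libraries, with a median of 0.878 and a highest value of 1.77. Without the filter the log2 fold change was 1.58 ± 0.44 (SE, edgeR adjusted p = 0.0222), in a contrast that called 2.27% of 13627 genes, and Cd34 was called beside it at -1.11 ± 0.26 (edgeR adjusted p = 0.00164). Within set A the Procr change was 1.95 (edgeR adjusted p = 0.13) and within set B 1.41 (edgeR adjusted p = 0.105), so neither set alone passed. The erythroid and mesenchyme shifts given for Cd34 belong to this contrast too. The Procr call rests on few molecules, 17 transcripts in all E10 ventral and 33 in all E11 ventral libraries. In dorsal wIAHCs Procr was found in 2 of 7 E10 and 7 of 12 E11 libraries, and the change of 1.68 was not called (edgeR adjusted p = 0.267). All 6 dorsal libraries of set A held Procr and 1 of 6 of set B did.

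Kit, on whose protein wIAHCs were picked, was not called between stages or sides. It was found in 19 of 21 E10 ventral, 6 of 7 E10 dorsal, 14 of 17 E11 ventral and 11 of 12 E11 dorsal libraries. The medians were 2.47 and 3.02 per 10000 in E10 ventral and dorsal libraries and 2.91 and 3.68 at E11. The ventral change was 0.09 (edgeR adjusted p = 0.934) and the dorsal change 0.26 (edgeR adjusted p = 0.925). Set A exceeded set B by 1.49 ± 0.38 (SE, edgeR adjusted p = 0.0218), where 0.492% of genes were called, so the E11 value depended on the set: against E10 ventral it was 0.93 for set A, where 0.859% of genes were called, and -0.39 for set B, where 2.25% were, and Kit was called in neither (edgeR adjusted p = 0.484 and 0.589). The erythroid markers moved with the sets, with ventral medians of 0.0572% of transcripts in set A and 0.338% in set B, and their part in the difference was not tested. Ptprc (0.77), Cd27 (1.04), Cd44 (-0.04), Cd93 (-0.15) and Cd9 (-0.60) were not called in E11 against E10 ventral wIAHCs (edgeR adjusted p of at least 0.353), and no member was called in the other contrasts, which called 0.785% of genes (E11 against E10 dorsal), 0.0881% and 0.0587% (sides at E11 and at E10) and 0.154% (interaction). Of the listed surface genes, Ly6a (2.26, edgeR adjusted p = 0.0118) was called higher, and Fcgr3 (-2.26, edgeR adjusted p = 0.0057) and Cd63 (-1.27, edgeR adjusted p = 0.0197) lower, in E11 ventral wIAHCs in that fit.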

How the data were processed

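Expression was measured by CEL-Seq in 14 labelled samples: 12 of single cells and the rest of wIAHCs. Reads were aligned with BWA 0.6.2-r126 to mm10, per the submitters' processing notes, and the 3′ ends were counted by molecular barcode; whether strand was used is not given in the sources used here. The authors deposited estimated transcript counts, corrected for barcode collisions, and the single-cell counts had been downsampled by the authors to 3000 (E10) or 5000 (E11) per cell with 0.1 added to every entry. Here 0.1 was subtracted. Means per cell carry exact 95% Poisson intervals, shares exact Clopper-Pearson intervals and ratios exact conditional intervals, and a count of 0 was read as at most 3. Step counts used a fold of 2 on log2(mean + 0.1) among genes with a mean of at least 0.5 in either population. No p-value was computed across cells.

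For wIAHCs, 90 spike-in rows and libraries under 5000 transcripts were left out, the deposited estimated counts were rounded, and edgeR 4.0.16 in R 4.3.3 (TMM scaling, filterByExpr, quasi-likelihood test, Benjamini-Hochberg adjustment over all genes tested at 0.05) was fitted to 4 groups of stage and side. DESeq2 1.42.0 was an alternative. Stage and side came from the labels and column names, and no column was without a sample. Scripts were tested on simulated data. Gene positions came from GENCODE M21, and upstream sequences from RefSeq GRCm38.p6, matched by symbol. Of 8 members, 6 had a sequence before the outermost start. All 8 members were named, with the 3 genes of highest correlation to each (the report gives the first or those of known role), and listed genes called in a wIAHC contrast or with a log2 ratio of at least 2 between HE and EHT cells at both stages. Cd47 and Tspan18, outside this rule, were named as the members of small counts after their values were seen. A listed gene is not reported here. The members and all lists were chosen with earlier results of these data known.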

Additional observations from a re-analysis of the deposited data

Results flagged for a closer look

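In the 7 E10 dorsal wIAHC libraries, 3 members had a highest library far from the rest. Ptprc reached 1.51 transcripts per 10000 against 0.606 in the next library, and Procr 1.51 against 0.526. Both are 1 transcript in the same library, the shallowest of the group at 6656 transcripts. Cd27 reached 1.08 against 0.0869, which is also 1 transcript. Chance flags about 1 group in 20, and 8 pairs of gene and group were screened.

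Cd27 differed in opposite directions between the stages in different tissues at 3000 transcripts per cell. In IAHC cells E11 lay below E10 by a log2 ratio of -1.03 (-1.92 to -0.12), and in YS HSPCs it lay above by 2.62 (0.39 to 5.24), from 3 transcripts at E10 and 6 at E11. Cd34 had a log2 ratio of E11 over E10 of -0.33 in non-HE cells, 0.73 in HE cells, -0.57 in EHT cells and -0.64 in IAHC cells. HE cells thus stood against the other aortic populations listed. In YS HSPCs Cd34 was also higher at E11, but the interval of that ratio included no change. These differences between populations were not tested, because each population is 1 sample per stage.

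The 52 wIAHC libraries under 5000 transcripts entered no main comparison. Those with at least 2000 entered only the alternative fit with that minimum. The 52 libraries held transcripts of the members: 26 of Kit, 51 of Cd34, 6 of Procr, 26 of Cd44, 24 of Cd93 and 5 of Cd9. Ptprc and Cd27 had 3 and 1 there, no more than the limit used for a count of 0.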

How the results depend on the processing

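No paired analysis was possible because the labels give no replicate numbers shared between groups. The pre-HSC sets share numbers in their column names, but both types are 1 labelled sample, so they are set side by side with no test. In wIAHCs, Cd34 stayed lower at E11 in ventral clusters in every fit that gave it a value, from -0.38 (set A alone without the filter, edgeR adjusted p = 0.869) to -1.48 (set B alone without the filter), and was called in all but those of set A alone. With a library minimum of 2000 transcripts it did not pass the filter. Without the filter, 310 genes were called in the ventral and 107 in the dorsal contrast of stage, 12 and 8 between sides at E11 and E10, and 21 in the interaction. With a library minimum of 10000 transcripts, 132 ventral and 3 dorsal genes were called. With collection set as a term, 1 gene was called between sides at E11. With set A alone, 29, 12 and 1 genes were called in the ventral, dorsal and E11 side contrasts. The difference of Cd34 between sides at E11, 0.03, became -0.040 with DESeq2, -0.091 with the minimum of 10000 and -0.10 with set B alone. With set B alone, Kit was -0.39 in ventral and -0.85 in dorsal clusters, and Procr -0.11 in dorsal clusters, each reversed from the value over both sets. The cause of these shifts was not tested. In single cells, the Kit gate difference at E10 ran from 2.12 to 2.39 and the Ptprc gate difference from 0.58 to 2.43 over fits that left out 1 set. A member's level moved by more than its spread in 28 checks and by less in 372. Counting only cells with at least 2 transcripts moved 88 shares and left 16, and Ptprc fell to 1.61% of type I and 3.64% of type II pre-HSCs. The 3 genes most like a member changed, with at most 1 shared, in 6 checks and not in 10. Applying the purification rule (over 1 Gpr56 transcript and at most 2 of each of several other genes) to c-kit+ IAHC cells gave 0.681 for Kit, 0.532 for Procr, 0.936 for Cd44 and 0.723 for Cd93. At 3000 to 5000 transcripts per cell, members found in few cells are limited by depth.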
